A study of Mus musculus with 6 samples.

Results

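The cytosolic ribosomal protein genes encode the protein part of the ribosomes that translate nuclear-encoded messages. They were taken by name from a table of read counts for mouse pancreatic islets: protein-coding genes whose symbol starts with Rpl or Rps followed by a digit, together with Rplp0, Rplp1, Rplp2 and Rpsa, without pseudogenes and S6 kinases. Of 55401 gene identifiers, 86 met the naming rule and 82 of these had at least 60 counts summed over the 6 libraries. The members held 43 proteins of the large subunit, 30 of the small subunit, 3 of the stalk and 6 paralogs, retrogenes or ribosomal protein binding proteins. The last member inside the minimum was Rps27rt with 87 counts, and below it lay Rps10 with 31, Rpl39l with 1, and Rpl3l and Rpl10l with 0 each. All 82 members passed the filter on low counts and were tested, and 73 of them had over 10000 summed counts.

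The 3 libraries labelled KO came from male C57BL/6 mice of about 20 weeks with floxed Pdgfra on both alleles and Pdx1-Cre (Pdgfra fl/fl Pdx1-Cre+). The 3 control libraries came from male mice of the same age and strain with the same floxed alleles and no Cre (Pdgfra fl/fl Pdx1-Cre-). Pdgfra encodes the platelet-derived growth factor receptor alpha, and Pdx1-Cre is active in the developing pancreatic epithelium, not in beta cells alone. No library carried Pdx1-Cre without the floxed alleles, so Cre and the deletion cannot be told apart. The names of all KO columns, and of no control column, end in a suffix that has no explanation in the labels, and a batch of that kind and the genotype cannot be told apart in any KO and control difference given here. The labels do not say that each library is a separate animal, and p-values then measure only the spread between these libraries.

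A ribosome is built from ribosomal RNA and one copy of most ribosomal proteins, so the genes are usually expressed in proportion to each other. Their messages begin with a run of pyrimidines at the transcription start, the terminal oligopyrimidine (TOP) motif, through which mTORC1 and the RNA-binding protein LARP1 control their translation and stability. Beta cells translate large amounts of insulin message and depend on this machinery, as do the enzyme-secreting acinar cells around the islet. An mRNA level does not show how many ribosomes a cell holds or how fast they translate.

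The start of the message is the place where the TOP motif can be read. Stalk, subunit and paralog genes are shown as 10 examples, chosen after their values were seen. Each line gives 30 bases, 15 on either side of the RefSeq start, 5′ to 3′ on the coding strand in GRCm38.p6, and capitals mark a C followed by at least 4 pyrimidines.
Rplp2, chr7:141447636-141447665, plus strand: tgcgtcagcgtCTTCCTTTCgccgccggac
Rps6, chr4:86857353-86857382, minus strand: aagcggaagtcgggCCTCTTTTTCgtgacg
Rpl28, chr7:4792950-4792979, plus strand: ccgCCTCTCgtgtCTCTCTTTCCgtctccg
Rpl38, chr11:114668565-114668594, plus strand: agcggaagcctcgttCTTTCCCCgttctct
Rpl15, chr14:18270972-18271001, minus strand: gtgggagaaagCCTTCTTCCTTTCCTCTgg
Rps27, chr3:90213634-90213663, minus strand: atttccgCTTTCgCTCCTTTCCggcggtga
Rps27rt, chr9:114982725-114982754, minus strand: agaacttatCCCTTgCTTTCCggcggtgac
Rpl22l1, chr3:28805493-28805522, plus strand: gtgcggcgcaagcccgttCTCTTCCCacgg
Rpl7l1, chr17:46782642-46782671, minus strand: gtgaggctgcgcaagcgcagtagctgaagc
Rps19bp1, chr15:80264292-80264321, minus strand: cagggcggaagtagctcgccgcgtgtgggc

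The lines of Rpl7l1 and Rps19bp1 held no such tract, and those of the other members shown did. These examples do not set core genes apart from paralogs. Core members not shown, such as Rplp0, Rpl5, Rpl11 and Rpsa, also had no tract in the window. Rps27 and the retrogene Rps27rt shared a run of 14 bases in their windows. Of the 82 members, 62 matched a RefSeq promoter. A tract lay within the window in 39 of the 62 members (62.9%), against 40.3% of 27025 genes. In 13 members (21%) the annotated start was itself a C followed by at least 4 pyrimidines, against 3.01% of genes. The tract around it can begin before the start, as in Rplp2. From 250 bases before to 50 bases after the start, on both strands, the ETS factor core CCGGAA was found in 34 of the 62 members (54.8%), against 16.7% of genes, the YY1 core ATGGCG in 19 (30.6%), against 10.2%, and TATAAA in 7 (11.3%), against 15.7%. These letters are a description of the windows and show no binding.

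Levels are counts scaled to library size (CPM) with TMM factors, which balance libraries on most genes. The libraries held 15026094 to 25299689 counts, and 14212 genes were tested with edgeR's quasi-likelihood test, with Benjamini-Hochberg adjustment over all of them and a threshold of 0.05. KO 3 and control 1 stood apart from the other libraries in the ribosomal protein genes. The counts and medians of the members and of each list are given with and without both. The choice rests on the members' own values, so the values without both are a description and no independent check. Loci of ribosomal RNA took 5.36%, 12.6% and 18.5% of the counts in KO 1, 2 and 3, against 4.38%, 3.32% and 4.52% in controls 1, 2 and 3. The 29 acinar genes took 36%, 31.6% and 19.7% of the counts in KO 1, 2 and 3, against 46.4%, 35.6% and 26% in controls 1, 2 and 3. All 29 were detected, so the libraries held exocrine RNA, and the label of beta cell does not describe the whole sample. All 9 beta cell markers were also detected, with summed levels from 103930 to 147506 CPM in KO and from 95905 to 125151 CPM in controls. In such whole-islet samples, fewer cells of a type and less RNA per cell cannot be told apart. Pdgfra had 93, 25 and 125 counts in KO 1, 2 and 3, against 42, 88 and 116 in controls 1, 2 and 3 (log2 fold change -0.26, SE 0.34, edgeR adjusted p = 0.869). Reads outside the floxed exons still count, so Pdgfra gave no check of the genotype labels.

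No ribosomal protein gene passed the test for a difference between KO and control islets. Nearly all members had a slightly lower fitted level in KO: the log2 fold change was negative in 80 of 82, where 52.2% of all genes were negative, with a median of -0.25, against -0.01 over all genes. Adjusted p ran from 0.674 to 0.98. The calls were 0 of 82 lower, where edgeR called 0.0633% of all genes lower, and 0 of 82 higher, where it called 0.00704%. DESeq2 and limma-voom also called 0 members. At an unadjusted p under 0.05, edgeR had 1 member, Rplp2, in the lower direction, where 2.54% of all genes were lower at that level. At the same level and direction DESeq2 had 5 members, where 1.7% of all genes were lower, and limma-voom had 2, where 2.49% were. The levels of the groups did not overlap in 2 members, Rplp2 and Rpl36al, both with KO lower, where 5.94% of all genes were of that kind.

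The lower values in KO were uneven across its libraries. Each library's deviation is its log2 level minus the mean of the 6 libraries. The median deviation of the 82 members was 0.03, 0.08 and -0.51 in KO 1, 2 and 3, against 0.38, 0.12 and -0.11 in controls 1, 2 and 3. KO 3 had the lowest level in 81 of 82 members, and control 1 had the highest in 75. In 69 members both KO 1 and KO 2 stood above control 3. Leaving out KO 3 and control 1, a choice made after seeing the data, gave a median log2 fold change of 0.04 with 62 of the 82 members positive. Again 0 were called by edgeR, and 1, Rpl7l1, had an unadjusted p under 0.05 (higher). These were the lowest KO library and the highest control in the members' median deviation, so the choice itself raised the median. Without KO 3 alone the median was -0.09, and without control 1 alone it was -0.13. Without KO 1, KO 2, control 2 or control 3 alone it was -0.34, -0.37, -0.27 and -0.37.

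**Figure D1:**
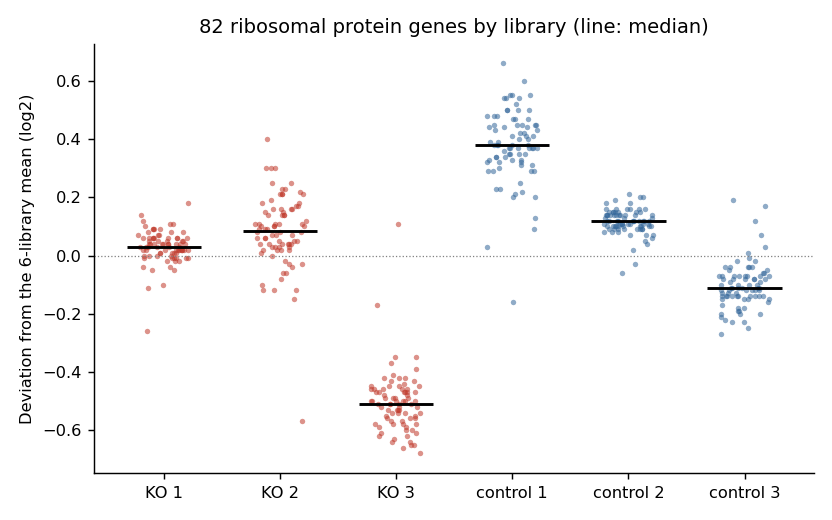
Deviation of each of the 82 ribosomal protein genes from its 6-library mean (log2 of TMM-scaled CPM plus 0.5), by library, KO in red and control in blue, with a line at the median. The median lines lie at 0.03, 0.08 and -0.51 in KO 1, 2 and 3, and at 0.38, 0.12 and -0.11 in controls 1, 2 and 3.

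The shares of acinar genes and of ribosomal RNA loci also differed between the libraries. KO 3 had the highest share of ribosomal RNA loci and the lowest acinar share, and control 1 had the highest acinar share. The ribosomal RNA share was 12.6% in KO 2 and 5.36% in KO 1, where the members had median deviations of 0.08 and 0.03. In controls 1 and 3 it was 4.38% and 4.52%, at median deviations of 0.38 and -0.11. With the log2 CPM of the ribosomal RNA loci as a covariate, added after seeing the data, the median log2 fold change was 0.04 and 54 members were positive. Every KO library had a higher ribosomal RNA share than every control, so this fit cannot well tell the covariate from genotype. The SE rose with it, from 0.17 to 0.27 for Rpsa and from 0.20 to 0.33 for Rplp0. With the acinar level as a covariate the median log2 fold change was -0.07 and 19 members were positive. With limma-voom and sample quality weights the median was -0.16. Members with a call numbered 0 in each of these fits. The part of these shares in the result was not tested.

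As a share of all counts, the members together took 1.81%, 1.6% and 1.26% in KO 1, 2 and 3, against 1.89%, 1.97% and 1.91% in controls 1, 2 and 3. All KO libraries lay below all controls on this scale, at 1.56% ± 0.278 in KO and 1.92% ± 0.0416 in controls (SD, n = 3 each). The 95% Wilson intervals, which cover counting error only, reached at most 0.00688 percentage points to either side. The order was not kept on other scales. Without the counts of ribosomal RNA loci and acinar genes, the share was 3.08%, 2.87% and 2.04% in KO 1, 2 and 3, against 3.83%, 3.23% and 2.75% in controls 1, 2 and 3, and the groups overlapped. The summed TMM-scaled level was 17630, 18233 and 12032 CPM in KO 1, 2 and 3, against 22754, 18705 and 15894 CPM in controls 1, 2 and 3. Its means were 15965 ± 3419 CPM in KO and 19118 ± 3449 CPM in controls (SD, n = 3 each), with KO 1 and KO 2 both above control 3.

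**Figure D2:**
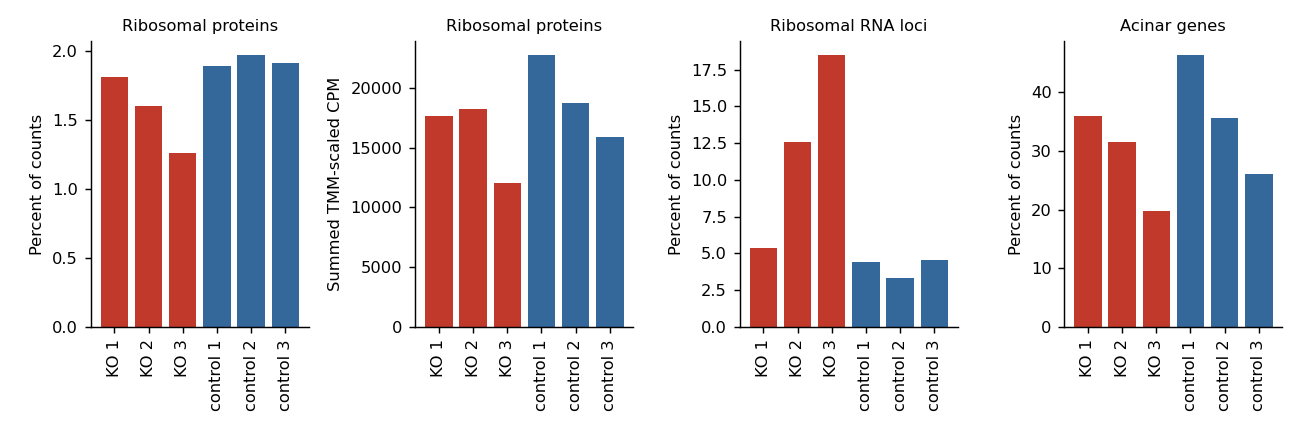
From left to right, by library with KO in red and control in blue: percent of counts in the ribosomal protein genes, their summed TMM-scaled CPM, percent of counts in ribosomal RNA loci, and percent of counts in the 29 acinar genes. The share of counts is lower in every KO library than in every control, whereas the summed CPM of the groups overlaps. The ribosomal RNA share reaches 18.5% in KO 3.

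The stalk proteins recruit and activate the translation factors on the large subunit. Rplp2 (ENSMUSG00000025508.13, chromosome 7, 141447370 to 141451585, GRCm38) had 137, 134 and 99.2 CPM in KO 1, 2 and 3, against 170, 153 and 139 CPM in controls 1, 2 and 3. Every KO library lay below every control, the nearest pair being KO 1 and control 3. The log2 fold change was -0.32 (SE 0.14, edgeR unadjusted p = 0.0452, adjusted p = 0.674), the smallest p among the members. Without KO 3 and control 1 it was -0.12 (SE 0.09, edgeR adjusted p = 0.944). Rplp0, the base of the stalk, had 529, 573 and 379 CPM in KO 1, 2 and 3, against 729, 579 and 471 CPM in controls 1, 2 and 3, and the groups overlapped (log2 fold change -0.26, SE 0.20, edgeR adjusted p = 0.788). Rplp1, the dimer partner of Rplp2, averaged 252 ± 53.6 CPM in KO and 308 ± 61 CPM in controls (SD, n = 3 each, edgeR adjusted p = 0.759).

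The large subunit holds the peptidyl transferase centre and the exit tunnel. Its 43 members all had negative log2 fold changes, from -0.42 to -0.13, with a median of -0.25 and edgeR adjusted p from 0.683 upwards. Rpl21 had 273, 235 and 182 CPM in KO 1, 2 and 3, against 369, 290 and 254 CPM in controls 1, 2 and 3, so that KO 1 lay above control 3 (log2 fold change -0.40, SE 0.18, edgeR adjusted p = 0.683). Rpl30, which also binds its own transcript in yeast, averaged 111 ± 17.1 CPM in KO and 138 ± 25.4 CPM in controls (SD, n = 3 each, edgeR adjusted p = 0.725).

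Rpl5 and Rpl11 carry the 5S ribosomal RNA into the large subunit, and when assembly fails they bind Mdm2 and stabilise p53. Rpl5 had 371, 375 and 229 CPM in KO 1, 2 and 3, against 458, 401 and 319 CPM in controls 1, 2 and 3. Rpl11 had 173, 189 and 121 CPM in KO 1, 2 and 3, against 221, 185 and 151 CPM in controls 1, 2 and 3. Both were low in KO 3, while KO 1 and KO 2 stood between the lowest and the highest control (log2 fold changes -0.27 with SE 0.21 and -0.21 with SE 0.19, edgeR adjusted p 0.788 and 0.821). Rpl23, which can also bind Mdm2, had 323, 281 and 204 CPM in KO 1, 2 and 3, against 462, 334 and 276 CPM in controls 1, 2 and 3 (log2 fold change -0.41, SE 0.22, edgeR adjusted p = 0.73). Rpl35a, one of the genes mutated in Diamond-Blackfan anaemia in people, averaged 112 ± 28.4 CPM in KO and 127 ± 18.8 CPM in controls (SD, n = 3 each, edgeR adjusted p = 0.838). Its log2 fold change was -0.18 with all libraries and 0.10 without KO 3 and control 1.

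The small subunit binds the message and decodes it. Its 30 members were all negative as well, from -0.38 to -0.15 with a median of -0.24 and edgeR adjusted p from 0.717 upwards. Rps6, the substrate of the S6 kinases downstream of mTORC1, had 195, 198 and 136 CPM in KO 1, 2 and 3, against 271, 211 and 175 CPM in controls 1, 2 and 3 (log2 fold change -0.31, SE 0.19, edgeR adjusted p = 0.745). Rps20 had 159, 154 and 107 CPM in KO 1, 2 and 3, against 220, 170 and 152 CPM in controls 1, 2 and 3, and KO 1 and KO 2 both lay just above control 3 (log2 fold change -0.37, SE 0.18, edgeR adjusted p = 0.717). Rps2 and Rps3, which line the entry of the message channel, averaged 286 ± 53.1 and 279 ± 71 CPM in KO, against 349 ± 69.9 and 316 ± 56.7 CPM in controls (SD, n = 3 each, edgeR adjusted p 0.749 and 0.845). Rpsa, also known as a laminin receptor, had 442, 447 and 321 CPM in KO 1, 2 and 3, against 568, 472 and 414 CPM in controls 1, 2 and 3 (edgeR adjusted p = 0.754).

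Of the other Diamond-Blackfan genes, Rps19 had 126, 135 and 79.6 CPM in KO 1, 2 and 3, against 160, 137 and 105 CPM in controls 1, 2 and 3. KO 2 nearly equalled control 2, and KO 3 was the lowest library (log2 fold change -0.24, SE 0.21, edgeR adjusted p = 0.816). Rps26 averaged 146 ± 30 CPM in KO and 188 ± 44.7 CPM in controls (SD, n = 3 each, edgeR adjusted p = 0.73). Rps27a encodes ubiquitin fused to a ribosomal protein, and it averaged 239 ± 54.2 CPM in KO and 275 ± 28.3 CPM in controls (SD, n = 3 each, edgeR adjusted p = 0.808).

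Rpl38, Rps25 and Rpl10a have been studied in mouse and human cells as proteins whose presence can differ between ribosomes, and Rpl38 is needed for the axial skeleton in mice. Rpl38 had 130, 133 and 96.6 CPM in KO 1, 2 and 3, against 167, 142 and 130 CPM in controls 1, 2 and 3 (log2 fold change -0.29, SE 0.15, edgeR adjusted p = 0.726). Rps25 had 229, 268 and 164 CPM in KO 1, 2 and 3, against 303, 249 and 205 CPM in controls 1, 2 and 3 (log2 fold change -0.20, SE 0.20, edgeR adjusted p = 0.834). Rpl10a had 106, 97.6 and 62.3 CPM in KO 1, 2 and 3, against 127, 99.6 and 79.9 CPM in controls 1, 2 and 3 (log2 fold change -0.20, SE 0.21, edgeR adjusted p = 0.838). All 3 genes were highest in control 1 and lowest in KO 3.

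**Figure D3:**
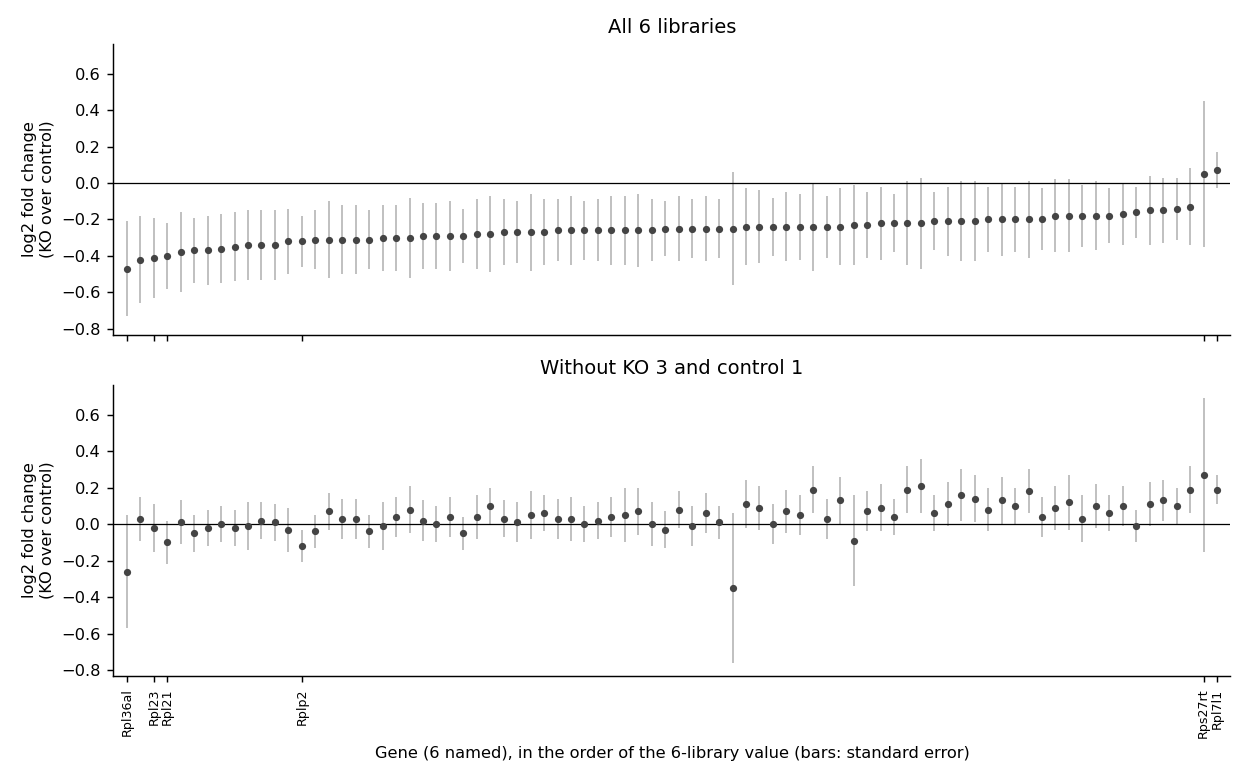
Log2 fold change of KO over control for each of the 82 genes with its standard error, from all 6 libraries (top) and without KO 3 and control 1 (bottom), with genes in the same order in both panels and 6 of them named. In the upper panel 80 genes lie below 0 around a median of -0.25, and in the lower panel 62 lie above 0 around a median of 0.04. KO 3 and control 1 were chosen on the values of these genes.

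The 6 paralogs, retrogenes and binding proteins had a median level of 9.11 CPM per kilobase of principal transcript, against 244 in the 76 core genes. Rpl7l1, a nucleolar relative of Rpl7 that acts in ribosome assembly, had 38.2, 37.5 and 30.7 CPM in KO 1, 2 and 3, against 35.3, 33 and 33.1 CPM in controls 1, 2 and 3. KO 1 and KO 2 were above every control and KO 3 was below them all (log2 fold change 0.07, SE 0.10, edgeR adjusted p = 0.892). It had the smallest spread over libraries of the well-expressed members, with an SD of 0.12 on the log2 scale, against a median of 0.31 over all 82. Rpl7 itself averaged 294 ± 56.8 CPM in KO and 339 ± 58.6 CPM in controls (SD, n = 3 each, edgeR adjusted p = 0.813). Rpl7l1 was at 0.19 without KO 3 and control 1 (SE 0.08, unadjusted p = 0.0478, edgeR adjusted p = 0.824). The other positive member was the retrogene Rps27rt, with 0.721, 1.06 and 0.419 CPM in KO 1, 2 and 3, against 0.562, 0.757 and 0.692 CPM in controls 1, 2 and 3, and its log2 fold change of 0.05 had an SE of 0.40.

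Rpl22 and Rpl22l1 can replace each other in the large subunit, and in mice Rpl22 represses Rpl22l1. Rpl22 had 96.8, 96.3 and 65 CPM in KO 1, 2 and 3, against 114, 102 and 90 CPM in controls 1, 2 and 3. Rpl22l1 had 44.9, 46.9 and 31.4 CPM in KO 1, 2 and 3, against 57, 49.4 and 41.3 CPM in controls 1, 2 and 3. The log2 fold changes were -0.25 (SE 0.16) and -0.26 (SE 0.17), with edgeR adjusted p of 0.755 and 0.753. Rps27l, known as a p53 target, averaged 49.2 ± 13.9 CPM in KO and 60.7 ± 13.8 CPM in controls (SD, n = 3 each, edgeR adjusted p = 0.788). Rps27 had 164, 184 and 123 CPM in KO 1, 2 and 3, against 175, 176 and 173 CPM in controls 1, 2 and 3, so the controls were nearly equal (log2 fold change -0.16, SE 0.14, edgeR adjusted p = 0.819).

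The tissue-restricted paralogs were at or near 0. Rpl10l and Rpl3l, which replace Rpl10 in male germ cells and Rpl3 in striated muscle, had 0 counts in all 6 libraries, which allows up to 3 counts over the 6. Rpl39l, the male germ cell paralog of Rpl39, had 1 count, in control 3. Their partners averaged 536 ± 97.7 CPM (Rpl10), 325 ± 64.8 CPM (Rpl3) and 89.5 ± 19.9 CPM (Rpl39) in KO, against 669 ± 119, 391 ± 60.5 and 108 ± 17.7 CPM in controls (SD, n = 3 each, edgeR adjusted p 0.744, 0.755 and 0.755). The X-linked Rps4x averaged 350 ± 71.2 CPM in KO and 444 ± 96.7 CPM in controls (SD, n = 3 each, edgeR adjusted p = 0.744).

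Levels of different genes were compared per kilobase of the principal transcript, over all 6 libraries. The median of the 82 members was 230 CPM per kilobase, and the highest were Rpl10 at 705, Rpl41 at 649 and Rplp1 at 561 CPM per kilobase. With the longer lengths of the deposited table the order changed, and Rplp1 (561), Rps15 (408) and Rps3a1 (404) came first. Rps15, of the small subunit head, averaged 234 ± 54.6 CPM in KO and 281 ± 46 CPM in controls, and Rps3a1 averaged 362 ± 63.2 CPM in KO and 426 ± 65.3 CPM in controls (SD, n = 3 each, edgeR adjusted p 0.778 and 0.777). The order of Rpl22 and Rpl22l1 also depended on the length used, with 45.8 and 81.8 CPM per kilobase of principal transcript but 32.3 and 22.7 CPM per kilobase of table length.

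A few core genes had far fewer counts than their partners in the ribosome. Rpl24 had 169 counts over the 6 libraries and Rpl13a had 1240, at 1.91 and 9.73 CPM per kilobase. Rps10 had 31 counts, which kept it out of the members. In each of these, much of the principal transcript is also exon of another gene on the same strand: 71.5% of Rpl24 with Gm28037, 59.3% of Rpl13a with Gm45713 and 53.6% of Rps10 with RPS10-NUDT3, and each of these other genes had 0 counts. Rpl36al shared 26.0% with Gm49383, which had 1 count. Of the members, 3 shared over 20% of their principal transcript in this way, and how the counting treated reads in shared exons is not given in the sources used here. Counts of these genes are therefore uncertain as levels. Rpl36al had 1.36, 1.56 and 0.951 CPM in KO 1, 2 and 3, against 1.85, 1.81 and 1.68 CPM in controls 1, 2 and 3, with no overlap of the groups (log2 fold change -0.47, SE 0.26, edgeR adjusted p = 0.741). Its partner Rpl36a averaged 74.3 ± 19.2 CPM in KO and 92.5 ± 20.5 CPM in controls (SD, n = 3 each, edgeR adjusted p = 0.759).

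**Figure D4:**
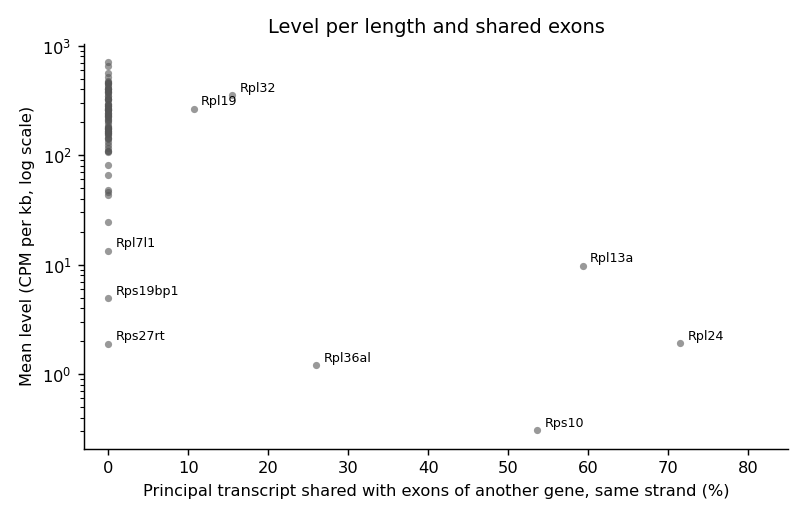
Mean level of each gene per kilobase of principal transcript (log axis) against the percent of that transcript which is also exon of another gene on the same strand. Rpl24, Rpl13a and Rps10 share 71.5%, 59.3% and 53.6% and lie at 1.91, 9.73 and 0.306 CPM per kilobase, below the median of 230 of the 82 members. The genes with 0 counts and Rpl39l are not drawn.

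Ribosomal protein genes have many processed pseudogenes, whose reads can be confused with those of the gene. The table held 300 rows named as pseudogenes with a symbol starting with Rpl or Rps. They included copies of 59 of the 82 members, and 169 of the 300 rows had a count. The 300 rows had 5302 counts in all, against 2135812 in the members. Rps10, which is not a member, had 4 of these rows, with 179 counts against 31 in Rps10 itself. In 24 processed copies that were tested, 20 had a negative log2 fold change with a median of -0.40, and 0 were called by edgeR, DESeq2 or limma-voom (2, 1 and 2 at an unadjusted p under 0.05). Over all genes 52.2% were negative, and 2.54% were lower at that level in edgeR. Of 26 copies tested without KO 3 and control 1, 15 were negative and the median was -0.08.

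The members' messages are short, with a principal transcript of up to 1000 bases in 52 of them. Among tested genes other than the 82, the median deviation in KO 3 was -0.24 for principal transcripts of up to 1000 bases and 0.16 for those over 4000 bases. In control 1 the same medians were 0.07 and -0.05. The median log2 fold change of these other genes was -0.11, -0.09, -0.03 and 0.08 from the shortest to the longest class. The members' medians were -0.25, -0.26, -0.27 and -0.17 in the same classes, with 52, 24, 5 and 1 members. The part of transcript length in the members' values was not tested.

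**Figure D5:**
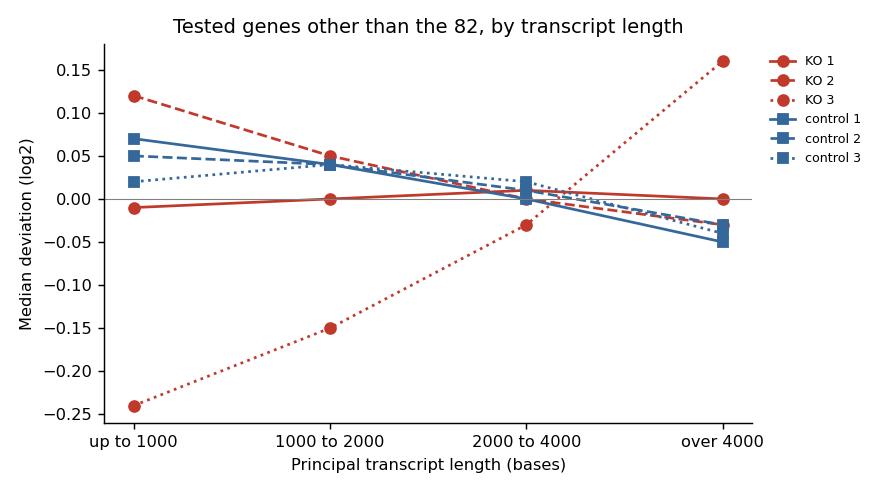
Median deviation from the 6-library mean (log2) of tested genes other than the 82, in 4 classes of principal transcript length, by library, with KO in red and control in blue. KO 3 lies lowest in the shortest class at -0.24 and highest in the longest at 0.16.

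Relative to the set as a whole, no member passed the test either. With TMM factors taken from the 82 genes alone, a fit added after seeing the data, 0 members were called and 0 had an unadjusted p under 0.05, where edgeR called 0.12% of all genes on that scale. The smallest adjusted p among members was 0.769, that of Rpl7l1, whose log2 fold change relative to the set was 0.33 (SE 0.27). That scale also gave 0 calls among members without KO 3 and control 1. With all libraries the SE on that scale was 0.27 for Rpl7l1 and 0.26 for Rpsa, against 0.10 and 0.17 in the reported fit. With an SE of that size, 0 calls do not show that the members changed alike. Members with and without the promoter letters had close median log2 fold changes, at -0.25 with a pyrimidine tract near the start and -0.26 without, -0.24 with CCGGAA and -0.26 without, and -0.25 both with and without ATGGCG.

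Other parts of the translation machinery were read beside the members. No gene of these lists was called by edgeR, DESeq2 or limma-voom. The genes named from each list are those with its smallest p. Of all 14212 genes tested, 52.2% were negative. At an unadjusted p under 0.05 in edgeR, 361 of them (2.54%) were lower and 687 were higher. The groups did not overlap in 844 of them (5.94%) with KO lower and in 1129 with KO higher. Fau and Rack1, ribosomal proteins outside the naming rule, had log2 fold changes of -0.20 (SE 0.17) and -0.26 (SE 0.21), with edgeR adjusted p of 0.796 and 0.801, and 0.07 and 0.11 without KO 3 and control 1. Of 19 elongation factors and other TOP messages, 18 were negative with a median of -0.21, 0 had an unadjusted p under 0.05 in edgeR, and without KO 3 and control 1 there were 10 negative with a median of -0.01. Eif3f, a subunit of initiation factor eIF3, averaged 76.6 ± 8.02 CPM in KO and 92.1 ± 12.9 CPM in controls (SD, n = 3 each, edgeR adjusted p = 0.703). Eef1d, a subunit of the exchange factor of elongation, averaged 56.2 ± 8.83 CPM in KO and 69.4 ± 12.2 CPM in controls (SD, n = 3 each, edgeR adjusted p = 0.725). Its groups only just failed to overlap, with 61.6 CPM in KO 2 and 61.8 CPM in control 3.

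Of 16 genes of mTORC1 and LARP1, 9 were negative with a median of -0.08, and 2 had an unadjusted p under 0.05 in edgeR. With KO 3 and control 1 left out, 6 of 16 were negative and the median was 0.04. Tsc1, an inhibitor of mTORC1, had 39.2, 38.6 and 42.4 CPM in KO 1, 2 and 3, against 31.7, 32.3 and 34.5 CPM in controls 1, 2 and 3 (log2 fold change 0.29, SE 0.09, edgeR adjusted p = 0.542). All KO libraries lay above all controls. Of all 14212 genes tested, 1129 were of that kind. Eif4ebp1, the translation repressor phosphorylated by mTORC1 and a known target of ATF4, had 18.9, 19 and 9.17 CPM in KO 1, 2 and 3, against 34.6, 24.2 and 18.2 CPM in controls 1, 2 and 3 (log2 fold change -0.70, SE 0.29, edgeR adjusted p = 0.671).

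Ribosome biogenesis genes process ribosomal RNA and assemble the subunits. Of 40 tested, 36 were negative with a median of -0.15, and 5 had an unadjusted p under 0.05 in edgeR, all lower. With KO 3 and control 1 left out, 34 of 40 were negative with a median of -0.08. Gnl3, a nucleolar GTPase of large subunit maturation, had 10.9, 12.7 and 11.6 CPM in KO 1, 2 and 3, against 15.6, 14.3 and 14.9 CPM in controls 1, 2 and 3 (log2 fold change -0.35, SE 0.11, edgeR adjusted p = 0.544). Mybbp1a, a nucleolar protein of ribosomal RNA processing, averaged 47.2 ± 1.21 CPM in KO and 54.6 ± 2.95 CPM in controls (SD, n = 3 each, edgeR adjusted p = 0.671). Neither gene overlapped between the groups. KO was lower without overlap in 8 of the 40, where 5.94% of all genes were of that kind. In the RNA polymerase I list 10 of 18 were negative with a median of -0.04, and 1 had an unadjusted p under 0.05 in edgeR. Leaving out KO 3 and control 1 gave 7 of 18 negative and a median of 0.03. Its terminator protein Ttf1 averaged 13.5 ± 0.23 CPM in KO and 11.4 ± 0.227 CPM in controls, and Taf1d averaged 2.98 ± 0.614 CPM in KO and 4.17 ± 1.13 CPM in controls (SD, n = 3 each, edgeR adjusted p 0.648 and 0.73).

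All 7 chaperones of ribosomal proteins were negative, with a median of -0.09 and 1 at an unadjusted p under 0.05 in edgeR, and 5 of 7 were negative with a median of -0.05 without KO 3 and control 1. Grwd1, known as a chaperone of Rpl3, averaged 3.5 ± 0.255 CPM in KO and 5.08 ± 0.505 CPM in controls, and Bccip, the chaperone of Rpl23, averaged 42.6 ± 4.34 CPM in KO and 47.9 ± 1.8 CPM in controls (SD, n = 3 each, edgeR adjusted p 0.544 and 0.744). In the list of the 5S particle and p53, 5 of 6 were negative with a median of -0.13 and 2 at an unadjusted p under 0.05 in edgeR, and again 5 of 6 with a median of -0.10 without KO 3 and control 1. Cdkn1a, the cell cycle inhibitor induced by p53, had 10.5, 9.42 and 8.68 CPM in KO 1, 2 and 3, against 21.1, 14.7 and 12.7 CPM in controls 1, 2 and 3 without overlap (log2 fold change -0.74, SE 0.18, edgeR adjusted p = 0.427). KO was lower without overlap in 2 of the 6 genes, where 5.94% of all genes were of that kind. Sesn2, a stress-induced inhibitor of mTORC1, averaged 21.8 ± 1.42 CPM in KO and 26.3 ± 1.05 CPM in controls (SD, n = 3 each, edgeR adjusted p = 0.591). Ribosome quality control had 9 of 9 negative with a median of -0.07 and 0 at an unadjusted p under 0.05 in edgeR, and 5 of 9 with a median of -0.03 without KO 3 and control 1. The smallest p were those of Rnf10 and Zfp598, ubiquitin ligases that mark stalled ribosomes, at log2 fold changes of -0.16 (SE 0.09) and -0.11 (SE 0.09).

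The mitochondrial ribosome, built from separate proteins encoded in the nucleus, was negative in 70 of 77 genes with a median of -0.13 and 0 at an unadjusted p under 0.05 in edgeR. Its genes showed the same libraries as the cytosolic set, with median deviations of -0.01, 0.08 and -0.27 in KO 1, 2 and 3, against 0.13, 0.04 and 0.03 in controls 1, 2 and 3. Without KO 3 and control 1, 36 of 77 were negative with a median of 0.01. Mrpl41 averaged 7.52 ± 0.831 CPM in KO and 9.09 ± 0.355 CPM in controls, and Mrps16 averaged 9.63 ± 1.7 CPM in KO and 11.8 ± 0.685 CPM in controls (SD, n = 3 each, edgeR adjusted p 0.704 and 0.725).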

How the data were processed

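RNA of islets was sequenced in 3 KO and 3 control libraries, whose preparation used an mRNA kit (labels' protocols). The authors deposited raw read counts per gene. The submitters' processing notes name STAR 2.7.9, featureCounts 2.0.0, GRCm38.p6 and mm10. The handling of strand, of reads in shared exons and of reads at several places is not given in those sources. All version-matched identifiers (54349) had the span of GENCODE M21, which gave gene types and principal transcripts.

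Counts were tested with edgeR 4.0.16 (R 4.3.3, glmQLFit and glmQLFTest, two-sided, genotype only, TMM, filterByExpr at min.count 10 and min.total.count 15) on 14212 genes, with Benjamini-Hochberg adjustment and a threshold of 0.05. The common biological coefficient of variation was 0.14. The script was checked on simulated data. Deviations used log2 of CPM plus 0.5. Libraries differed by a chi-square of at least 14.4 per degree of freedom, so none was a copy. The members and lists were chosen with earlier results of these data known. Named genes were 20 genes of known role, 8 paralog pairs (Rps4l was not used here), the 4 smallest p in each direction, the 3 highest and 3 lowest levels per length, the 3 largest and smallest SDs, and 2 genes per list; some genes that this rule takes are left out here. Rpl41, Rpl13a and the genes of the sequence lines were named after their values were seen. Promoter windows came from RefSeq (GRCm38.p6). Alternatives were other normalizations, filters, tools (DESeq2 1.42.0, limma 3.58.1), covariates, a replicate block and left-out libraries. Python 3.11.15 was used with pandas 2.3.3, matplotlib 3.10.9, SciPy 1.17.1 and NumPy 2.4.6.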

Additional observations from a re-analysis of the deposited data

How the results depend on the processing

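Counts of called members were 0 in either direction under each of the 19 alternatives run. Of the members, 73 had over 10000 summed counts, and the SE of the 82 log2 fold changes ran from 0.10 to 0.40. The cause of the shifts below was not tested.

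The members with a positive log2 fold change numbered 2 in the reported fit, 1 with library totals in place of TMM factors, 1 with limma-voom, 19 with the acinar covariate, 54 with the ribosomal RNA covariate and 62 without KO 3 and control 1. With 1 library left out they numbered 1 to 10, and the median log2 fold change ran from -0.37 to -0.09. The median was 0.04 with the ribosomal RNA covariate and 0.04 without KO 3 and control 1. That covariate separates the groups, and those libraries were chosen on the members' own values, so neither fit is an independent check. With library totals it was -0.30, where all genes had a median of -0.08.

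The deviations of same-numbered KO and control libraries correlated at 0.16, -0.16 and 0.14 for numbers 1, 2 and 3. For libraries of different numbers the correlations ran from -0.24 to 0.16. The members' median deviation and the acinar share were lowest at number 3 in both groups. Whether the title numbers pair the libraries was not settled by these values. With the replicate block the median log2 fold change was -0.26, 47 members had an unadjusted p under 0.05 in edgeR, all lower, where 4.35% of all genes were lower at that level, and 0 members but 36 genes in all were called, against 10 in the fit without the block. Without the filter on low counts 32 members had an unadjusted p under 0.05, all lower, where 3.03% of all 26297 genes were, and 0 members but 300 genes in all were called. There Eif4ebp1 (-0.70) and Cdkn1a (-0.74) passed the threshold.

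For the 40 named members and 22 other named genes, 1110 of 1178 values under the alternatives had the same direction and the same side of the threshold, 66 turned direction and 2 came to pass it. Without KO 3 and control 1, the log2 fold changes that turned included Rpsa 0.00, Rplp0 0.07, Rplp1 0.04, Rps2 0.02, Rps3 0.12, Rps6 0.03, Rpl5 0.05, Rpl11 0.11, Rps19 0.11, Rpl35a 0.10, Rps25 0.13, Rpl10a 0.18, Rps27a 0.04, Rpl22 0.01, Rpl22l1 0.02, Rps27l 0.08, Rpl39 0.03, Rpl3 0.01, Rpl36a 0.07, Rpl7 0.08, Rps15 0.04, Rps3a1 0.03, Rpl32 0.21, Rps29 0.06, Fau 0.07 and Rack1 0.11. With the ribosomal RNA covariate they included Rplp1 0.04, Rps3 0.05, Rpl5 0.14, Rpl11 0.07, Rps19 0.14, Rpl35a 0.08, Rps25 0.04, Rpl10a 0.25, Rps27a 0.11, Rpl22 0.09, Rpl22l1 0.04, Rps27 0.06, Rps27l 0.07, Rpl39 0.08, Rpl3 0.05, Rpl36a 0.09, Rpl7 0.09, Rps4x 0.03, Rps15 0.00, Rps3a1 0.04, Rpl32 0.13, Fau 0.03 and Rack1 0.03. With the acinar covariate they were Rps3 0.02, Rps19 0.00, Rpl35a 0.00, Rps25 0.01, Rpl10a 0.05 and Rpl32 0.07. Rps27rt was at -0.04 with library totals and -0.06 with limma-voom. With 1 library left out, the values ran from -0.36 to 0.01 for Rpl35a, -0.44 to 0.02 for Rpl32, -0.26 to 0.36 for Rps27rt and -0.59 to 0.04 for Pdgfra.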

Other observations

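The insulin genes took 9.48%, 11.7% and 10.6% of the counts in KO 1, 2 and 3, against 7.04%, 10.4% and 13.3% in controls 1, 2 and 3. Rpl32 had 314, 380 and 192 CPM in KO 1, 2 and 3, against 431, 341 and 257 CPM in controls 1, 2 and 3, and its log2 fold change was -0.22 (SE 0.25, edgeR adjusted p = 0.857). Rps29 had 167, 185 and 134 CPM in KO 1, 2 and 3, against 214, 177 and 162 CPM in controls 1, 2 and 3, and its SD of 0.22 on the log2 scale was among the smallest. In the processed copies, Rps13-ps2 averaged 0.468 ± 0.151 CPM in KO and 0.972 ± 0.128 CPM in controls, and Rpl14-ps1 averaged 2.79 ± 0.4 CPM in KO and 4.37 ± 0.904 CPM in controls (SD, n = 3 each, edgeR adjusted p 0.6 for both).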
